A study of Homo sapiens with 6 samples.

Results

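The genes of HLA class I antigen presentation described here were HLA-B, HLA-C, HLA-E and HLA-F, which encode class I heavy chains, B2M, which encodes the shared light chain, TAP1 and TAP2, which encode the peptide transporter, TAPBP, which encodes tapasin, and NLRC5, which encodes a transactivator of class I genes. These 9 genes were listed by symbol, and each was matched to 1 of the 60483 Ensembl gene identifiers in the count tables. RNA sequencing of total RNA had been done in HepG2, an established human hepatocellular carcinoma line, and gave 1 raw count table per library. The groups were 3 libraries of cells transfected with FTO siRNA and 3 libraries of cells transfected with control siRNA. FTO encodes a demethylase of N6-methyladenosine and related marks in RNA. All 6 libraries came from the same line and carried an siRNA; the sources used here do not give the siRNA sequences, doses and times, or whether the replicates were separate cultures, so p-values measure only the spread between these libraries.

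A class I molecule is a heavy chain bound to beta-2-microglobulin and to a short peptide. Peptides are cut by the proteasome, carried into the endoplasmic reticulum by the TAP1-TAP2 transporter and loaded with the help of tapasin, calreticulin and ERp57. HLA-B and HLA-C, classical class I heavy chains, present peptides to CD8 T cells, while HLA-E presents mainly leader peptides of other class I chains to receptors of natural killer cells. Hepatocytes are known for low class I levels, and interferons and NF-kappaB are known inducers of the pathway in many cell types.

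The promoters are shown first, because these genes are known to share upstream elements. RefSeq promoters of GRCh38.p14, with 250 bases before and 50 bases from the start site on, were found for 7 of the 9 genes; HLA-E and NLRC5 had none. The first promoters of HLA-B (chr6:31357130-31357429, minus strand), HLA-C (chr6:31272043-31272342, minus strand), B2M (chr15:44711267-44711566, plus strand), TAP1 (chr6:32853655-32853954, minus strand), TAP2 (chr6:32838690-32838989, minus strand) and TAPBP (chr6:33314029-33314328, minus strand) are printed 5′ to 3′ along the gene's strand. Capitals mark matches, on either strand, to 4 motifs: CCAAT for the CCAAT box, TGACG for the core of a cyclic AMP response element (CRE core), AANNGAAA for an interferon regulatory factor (IRF) element and, for a kappaB element, GGG, any 2 bases, TT, any 1 base and CC.
HLA-B: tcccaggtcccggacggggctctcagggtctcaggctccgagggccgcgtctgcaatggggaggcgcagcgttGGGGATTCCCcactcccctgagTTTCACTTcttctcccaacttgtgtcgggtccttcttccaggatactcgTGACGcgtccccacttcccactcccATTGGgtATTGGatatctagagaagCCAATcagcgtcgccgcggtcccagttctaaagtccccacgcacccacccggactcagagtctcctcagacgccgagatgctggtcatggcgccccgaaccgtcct
HLA-C: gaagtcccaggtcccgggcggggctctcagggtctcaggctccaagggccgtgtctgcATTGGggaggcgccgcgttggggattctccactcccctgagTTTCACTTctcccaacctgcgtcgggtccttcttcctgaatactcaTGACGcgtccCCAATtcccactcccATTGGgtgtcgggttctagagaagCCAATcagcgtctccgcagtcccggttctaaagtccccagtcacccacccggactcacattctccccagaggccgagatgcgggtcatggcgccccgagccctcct
B2M: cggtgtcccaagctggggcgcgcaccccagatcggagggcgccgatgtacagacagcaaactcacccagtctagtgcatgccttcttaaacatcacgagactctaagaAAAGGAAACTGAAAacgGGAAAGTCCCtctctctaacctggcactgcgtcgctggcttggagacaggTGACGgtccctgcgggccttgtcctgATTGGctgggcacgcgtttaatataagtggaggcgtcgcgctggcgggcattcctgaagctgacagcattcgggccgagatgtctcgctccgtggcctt
TAP1: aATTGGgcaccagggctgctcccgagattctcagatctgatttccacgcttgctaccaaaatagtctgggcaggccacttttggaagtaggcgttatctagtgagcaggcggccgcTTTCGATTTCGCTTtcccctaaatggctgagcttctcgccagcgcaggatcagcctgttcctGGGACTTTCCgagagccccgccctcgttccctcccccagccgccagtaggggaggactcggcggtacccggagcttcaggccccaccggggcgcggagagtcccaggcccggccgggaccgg
TAP2: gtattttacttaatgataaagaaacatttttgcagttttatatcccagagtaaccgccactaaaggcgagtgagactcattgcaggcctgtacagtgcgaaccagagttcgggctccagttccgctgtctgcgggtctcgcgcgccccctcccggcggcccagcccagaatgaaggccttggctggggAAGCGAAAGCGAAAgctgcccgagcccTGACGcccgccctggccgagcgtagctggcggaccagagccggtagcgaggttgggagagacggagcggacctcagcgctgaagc
TAPBP: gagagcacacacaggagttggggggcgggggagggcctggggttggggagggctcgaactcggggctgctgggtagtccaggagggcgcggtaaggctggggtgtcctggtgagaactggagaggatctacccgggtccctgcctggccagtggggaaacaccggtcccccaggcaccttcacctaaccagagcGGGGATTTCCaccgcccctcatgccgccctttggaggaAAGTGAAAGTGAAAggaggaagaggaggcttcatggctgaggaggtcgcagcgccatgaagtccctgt

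The first promoters of all 7 genes, HLA-F among them, held an IRF element match, as did 22.8% of the 35116 RefSeq promoters. A second RefSeq promoter of TAP1 (chr6:32852712-32853011, minus strand) held no match to any of the 4 motifs and is not counted here. A CCAAT match was found in 5 of the 7 promoters (HLA-B, HLA-C, HLA-F, B2M and TAP1) and in 34.6% of all promoters. A CRE core was found in 4 (HLA-B, HLA-C, B2M and TAP2) and in 24.6% of all promoters. A kappaB match was found in 4 (HLA-B, B2M, TAP1 and TAPBP) and in 5.68% of all promoters. The first 3 motifs occurred together in HLA-B, HLA-C and B2M, and in 1.63% of all promoters. In HLA-B the kappaB match began at position -177, the IRF match at -155 and the CRE core at -106 from the start site, and matches of different motifs overlapped in none of the 7 promoters. B2M, TAP1, TAP2 and TAPBP each held a pair of IRF matches that overlapped each other. HLA-C had the IRF match at -151 and the CRE core at -105, and these letters of the kappaB motif were not in its window. Aligned end to end, the HLA-B and HLA-C promoters were identical at 88.5% of columns, HLA-B and HLA-F at 79.7%, and HLA-C and HLA-F at 78.5%. A match is a string of letters, and none of the libraries measured binding.

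**Figure D1:**
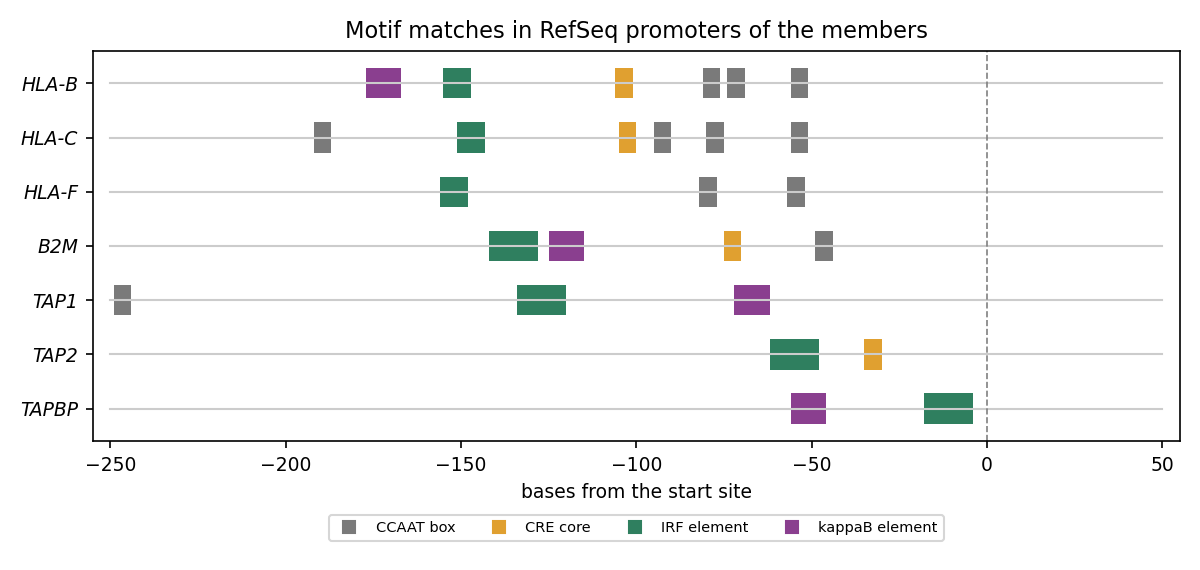
Motif matches along the 300-base promoters of the 7 genes found in the RefSeq table, with bases from the start site on the horizontal axis and 1 line per gene. Only the first promoter of each gene is shown. Every promoter shown carried an IRF element match, none before position -156, and kappaB matches lay in HLA-B, B2M, TAP1 and TAPBP.

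FTO siRNA lowered its target. FTO (ENSG00000140718.17) had 11.2, 14.5 and 5.21 CPM (counts scaled to library size) in FTO siRNA libraries 1, 2 and 3, against 40.8, 38.0 and 38.8 CPM in control siRNA libraries 1, 2 and 3. The log2 fold change was -1.93 ± 0.32 (SE) with an adjusted p of 0.00932 in edgeR's quasi-likelihood test with Benjamini-Hochberg adjustment over 15025 tested genes, the test used throughout with a threshold of 0.05. Total counts lay between 15713279 and 18390953 per library, so that 3 counts, taken as the floor, were worth 0.163 to 0.191 CPM. FTO siRNA library 3 stood apart: the chi-square of its counts against the other FTO siRNA libraries was 82.6 and 118 times its degrees of freedom, against 20.4 between those 2 and 8.45 to 15.4 between control siRNA libraries. Liver transcripts were abundant in both groups, with 9193 and 11797 mean CPM of AFP, the fetal albumin homologue, with FTO siRNA and control siRNA. Single liver genes were less steady, though these did not pass the test. APOB had 2616 and 6890 mean CPM in the same order (log2 fold change -1.4, adjusted p 0.065 by edgeR). APOA2 went the other way, with 338 and 194 mean CPM (0.8, adjusted p 0.116). In bulk RNA, a change in the number of cells that carry a transcript and a change in RNA per cell cannot be told apart.

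With FTO siRNA, 5 of the 7 tested class I and peptide loading genes rose (HLA-B, HLA-C, HLA-E, TAP1 and TAPBP), none fell, and B2M and TAP2 did not pass the test. Of all tested genes 7.53% were called higher and 3.83% lower. The median log2 fold change of the 7 was 2.07, against 0.04 over all tested genes. In each of the 9 genes the lowest FTO siRNA library lay above the highest control siRNA library; among all tested genes 19.2% did so. HLA-F and NLRC5 had too few counts for the filter, while the 7 tested genes reached its limit of 0.602 CPM in all 3 control siRNA libraries and so did not enter through the FTO siRNA libraries. Without FTO siRNA library 3 the number called higher was 6, with B2M added, and without control siRNA library 1 it was 3.

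**Figure D2:**
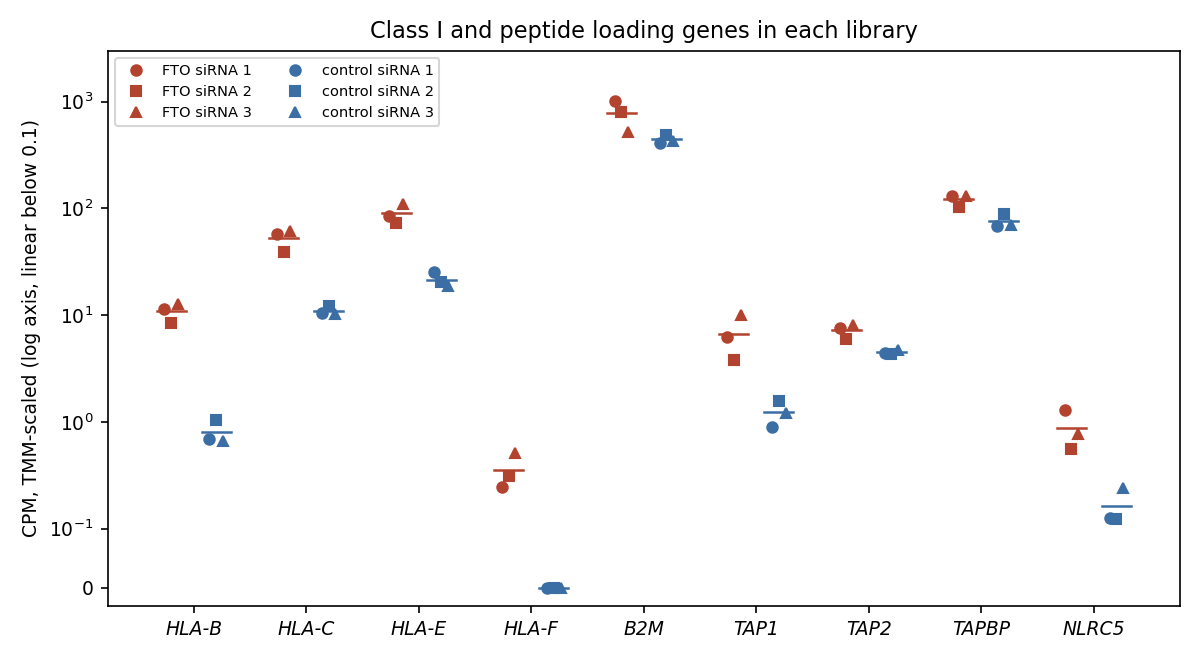
TMM-scaled CPM of the 9 genes in each library, on a logarithmic axis that is linear below 0.1; symbols mark the replicate number, and short lines mark the group means (n = 3 each). FTO siRNA libraries lay above all control siRNA libraries in every gene, with the widest separation in HLA-B (8.46 to 12.8 against 0.664 to 1.04 CPM) and HLA-F at 0 in the controls.

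Among the heavy chains, HLA-B (ENSG00000234745.8) had 11.5, 8.46 and 12.8 CPM in FTO siRNA libraries 1, 2 and 3, against 0.697, 1.04 and 0.664 CPM in control siRNA libraries 1, 2 and 3. Its control values rested on 11, 17 and 11 counts, close to the limit of what was tested, against 186, 137 and 250 counts with FTO siRNA. HLA-B averaged 10.9 ± 2.22 CPM with FTO siRNA and 0.799 ± 0.206 CPM with control siRNA (SD, n = 3 each), a 13.6-fold difference (log2 fold change 3.76 ± 0.30, adjusted p 0.00108 by edgeR). Its fold was the largest among the 7 tested genes.

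HLA-C (ENSG00000204525.13) had 57.2, 39.3 and 61.0 CPM in FTO siRNA libraries 1, 2 and 3, against 10.5, 12.1 and 10.3 CPM in control siRNA libraries 1, 2 and 3. FTO siRNA library 2 was the lowest of its group, as for HLA-B, and the control values were within 2 CPM of each other. The fold was 4.79 (log2 fold change 2.26 ± 0.20, adjusted p 0.00146 by edgeR). HLA-E (ENSG00000204592.8) had 85.6, 73.6 and 111 CPM with FTO siRNA and 25.3, 20.2 and 18.8 CPM with control siRNA. FTO siRNA library 3 was again the highest, and the fold was 4.19 (log2 fold change 2.07 ± 0.20, adjusted p 0.00173 by edgeR). HLA-B, HLA-C and HLA-E each passed the threshold in 15 of 15 alternative settings.

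HLA-F (ENSG00000204642.12), a nonclassical heavy chain, was near the detection limit. It had 4, 5 and 10 counts in FTO siRNA libraries 1, 2 and 3, against 0 in each control siRNA library. Over the floor of 3 counts per control library, it was at least 2.00-fold higher with FTO siRNA. HLA-F was left out of the test by the filter, and with no filter its adjusted p was 0.0386 by edgeR. HLA-G, another nonclassical heavy chain, had 0, 0 and 1 counts with FTO siRNA and 0 in each control siRNA library, which is under the floor.

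Class I heavy chain genes are close copies, and the sources used here do not give the treatment of reads that match several genes. Of 50-base words in the longest transcript, 2.54% for HLA-B, 6.39% for HLA-C, 5.13% for HLA-E and 1.7% for HLA-F also occurred in other genes. The annotated spans of HLA-B and HLA-C overlap each other by 2640 bases on the same strand. With overlapping genes left out, the shares were 1.47% for HLA-B and 4.64% for HLA-C. Summing the 4 genes into 1 feature makes the result independent of how such reads were split among them. The sum was 155, 122 and 185 CPM in FTO siRNA libraries 1, 2 and 3, against 36.5, 33.4 and 29.8 CPM in control siRNA libraries 1, 2 and 3. Summed class I heavy chains rose 4.63-fold (log2 fold change 2.21 ± 0.19, adjusted p 0.00142 by edgeR).

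B2M (ENSG00000166710.16), the light chain, had 1007, 799 and 521 CPM in FTO siRNA libraries 1, 2 and 3, against 406, 491 and 433 CPM in control siRNA libraries 1, 2 and 3. FTO siRNA library 3, the highest for each heavy chain, was the lowest for B2M and lay close to the highest control. B2M averaged 776 ± 244 CPM with FTO siRNA and 443 ± 43.5 CPM with control siRNA (SD, n = 3 each), and did not pass the test (log2 fold change 0.81 ± 0.24, adjusted p 0.0684 by edgeR). Without FTO siRNA library 3 the log2 fold change was 1.00 ± 0.13 with an adjusted p of 0.00115, and DESeq2 gave an adjusted p of 0.0178 on all 6 libraries. The call on B2M therefore turned on 1 library and on the tool.

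In the peptide transporter, the TAP1 and TAP2 subunits differed in size of change. TAP1 (ENSG00000168394.10) had 6.2, 3.83 and 10.0 CPM in FTO siRNA libraries 1, 2 and 3, against 0.887, 1.58 and 1.21 CPM in control siRNA libraries 1, 2 and 3. TAP1 rose 5.44-fold (log2 fold change 2.44 ± 0.41, adjusted p 0.0102 by edgeR), and without control siRNA library 1 the adjusted p was 0.0616. TAP2 (ENSG00000204267.12) had 7.56, 5.99 and 8.07 CPM with FTO siRNA and 4.44, 4.33 and 4.71 CPM with control siRNA. The groups did not overlap, but TAP2 did not pass the test (log2 fold change 0.68 ± 0.21, adjusted p 0.0707 by edgeR) and passed in 0 of 15 alternative settings. TAP1 overlaps PSMB9 on the other strand and the noncoding gene PSMB8-AS1, and since the sources used here do not give strand use, reads of these genes cannot be told apart where they overlap. TAP2 shared 35.8% of its words with other genes, nearly all with an overlapping gene that had no count in any library, and 0.55% with genes elsewhere. That gene lies on the same strand, and the sources used here do not say how reads in both genes were counted. Its lack of counts therefore does not show that TAP2 lost no reads.

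TAPBP (ENSG00000231925.10), whose product tapasin bridges class I molecules to the transporter, had 131, 104 and 130 CPM in FTO siRNA libraries 1, 2 and 3, against 68.9, 88.2 and 70.1 CPM in control siRNA libraries 1, 2 and 3. TAPBP rose 1.61-fold (log2 fold change 0.69 ± 0.16, adjusted p 0.0326 by edgeR), the same fold as that of TAP2, which missed the threshold. The call on TAPBP was less steady than those on the heavy chains. It passed in 8 of 15 alternative settings, and the adjusted p was 0.0752 without FTO siRNA library 1 and 0.176, 0.075 and 0.14 without control siRNA library 1, 2 and 3.

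NLRC5 (ENSG00000140853.14), the class I transactivator, had 21, 9 and 15 counts in FTO siRNA libraries 1, 2 and 3, against 2, 2 and 4 counts in control siRNA libraries 1, 2 and 3. Every FTO siRNA library was above every control, at levels close to the floor in the controls. The ratio of the summed counts, 45 with FTO siRNA and 8 with control siRNA, was 5.32, with an exact 95% interval of 2.48 to 13.1 that covers counting error only. NLRC5 was left out of the test by the filter, and with no filter its adjusted p was 0.0344 by edgeR.

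Levels of different genes were compared per transcript length, in TPM, computed by dividing counts by the length of 1 principal transcript per gene and scaling each library to the same total. With FTO siRNA, B2M was highest at 1058 ± 195 TPM, followed by TAPBP at 155 ± 32.4, HLA-E at 84.2 ± 29.1, HLA-C at 82.4 ± 25.2 and HLA-B at 17.1 ± 5.18 TPM (SD, n = 3 each). TAP2 at 6.96 ± 1.75, TAP1 at 5.58 ± 3.34, HLA-F at 0.541 ± 0.287 and NLRC5 at 0.3 ± 0.103 TPM were the lowest. HLA-E and HLA-C, TAP2 and TAP1, and HLA-F and NLRC5 did not differ beyond their spread. With control siRNA the order began likewise with B2M at 658 ± 65.7, TAPBP at 101 ± 15, HLA-E at 20.9 ± 3.58 and HLA-C at 18.0 ± 1.81 TPM, the last 2 again within their spread. TAP2 at 4.54 ± 0.144 TPM then lay above HLA-B at 1.31 ± 0.344 and TAP1 at 1.05 ± 0.299 TPM, which did not differ beyond their spread, and NLRC5 at 0.0603 ± 0.0240 and HLA-F at 0 came last. HLA-B thus stood above TAP2 with FTO siRNA and below it with control siRNA.

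Ratios within a library show how the genes moved relative to each other, whatever the scaling of the libraries. Among the 5 ratios computed, the exact two-sided permutation test of 3 libraries against 3 cannot go below p = 0.1. The ratio of summed heavy chains to B2M was 0.132, 0.127 and 0.297 in FTO siRNA libraries 1, 2 and 3, against 0.0713, 0.0567 and 0.0566 in control siRNA libraries 1, 2 and 3. This was 2.79-fold higher with FTO siRNA, with no overlap (exact permutation p = 0.1, adjusted p = 0.167 over the 5 ratios). TAP1 over TAP2 was 0.692, 0.539 and 1.05 with FTO siRNA and 0.169, 0.309 and 0.216 with control siRNA. The transporter's subunit ratio was 3.26-fold higher with FTO siRNA, again with no overlap (exact permutation p = 0.1, adjusted p = 0.167). HLA-B over HLA-C was 0.2, 0.214 and 0.208 with FTO siRNA and 0.0662, 0.0848 and 0.0642 with control siRNA. It was 2.91-fold higher with FTO siRNA and had a narrow range within each group (exact permutation p = 0.1, adjusted p = 0.167). HLA-C over HLA-E overlapped between the groups, at 1.13, 0.906 and 0.932 with FTO siRNA and 0.699, 1.01 and 0.923 with control siRNA (exact permutation p = 0.5, adjusted p = 0.625). TAPBP over TAP2 overlapped too, at 23, 22.9 and 21.4 with FTO siRNA and 20.5, 27 and 19.7 with control siRNA (exact permutation p = 1).

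**Figure D3:**
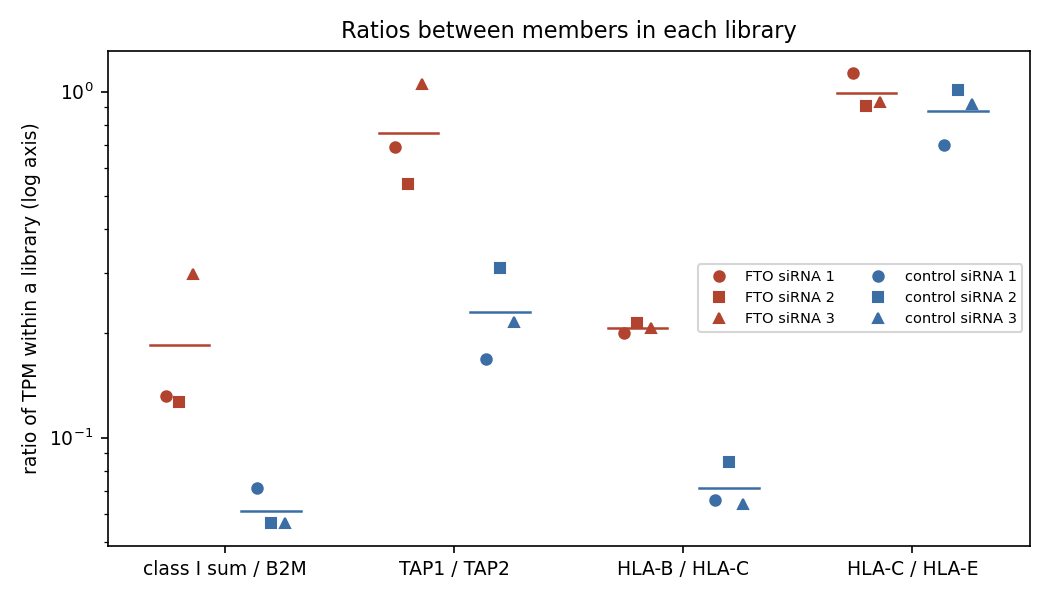
Ratios of TPM within each library on a logarithmic axis, with 1 symbol per library and a short line at the group mean (n = 3 each). Heavy chains over B2M, TAP1 over TAP2 and HLA-B over HLA-C were higher in every FTO siRNA library than in any control siRNA library, and HLA-C over HLA-E overlapped.

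Of 12 other genes that cut or supply peptides, all tested, 2 rose, 1 fell and 9 did not pass, with a median log2 fold change of 0.10. PSMB8, a catalytic subunit of the immunoproteasome, had 2.60, 2.78 and 3.37 CPM in FTO siRNA libraries 1, 2 and 3, against 0.317, 0.366 and 0.362 CPM in control siRNA libraries 1, 2 and 3. Its fold of 8.25 (log2 fold change 3.04 ± 0.33, adjusted p 0.00233 by edgeR) lay between those of HLA-B and TAP1. PSMB9, another catalytic subunit of the immunoproteasome, had 16, 15 and 29 counts with FTO siRNA and 1, 0 and 1 counts with control siRNA. The ratio of its summed counts was 28.4, with an exact 95% counting interval of 7.52 to 240, and its adjusted p was 0.00233 by edgeR. PSMB8 and PSMB9 were under the limit of the filter in all 3 control siRNA libraries and were tested only because they were high with FTO siRNA. The start sites of PSMB9 and TAP1 lie 488 bases apart on opposite strands in RefSeq. The third inducible subunit, PSMB10, had 2.66, 1.42 and 4.19 CPM with FTO siRNA and 1.58, 1.52 and 1.39 CPM with control siRNA, with overlap between the groups (log2 fold change 0.90 ± 0.40, adjusted p 0.184).

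Of the aminopeptidases that trim peptides, ERAP1 and ERAP2 did not pass the test and LNPEP fell. ERAP1, the main trimming enzyme of the endoplasmic reticulum, averaged 81.5 CPM with FTO siRNA and 81.3 CPM with control siRNA (adjusted p 0.994 by edgeR). ERAP2, its partner, had a log2 fold change of 0.94 with an adjusted p of 0.247. LNPEP, an endosomal aminopeptidase related to both, averaged 27.2 ± 3.10 CPM with FTO siRNA and 42.4 ± 4.46 CPM with control siRNA (SD, n = 3 each) (log2 fold change -0.64 ± 0.16, adjusted p 0.0369 by edgeR). That call was lost when any 1 library other than FTO siRNA library 3 was left out, with adjusted p up to 0.17. It was also lost with the replicate block (adjusted p 0.076) and with offsets for GC content and length, where the log2 fold change was -0.26 (adjusted p 0.363).

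None of the 8 tested genes for the folding and editing of class I molecules passed the test, and their median log2 fold change was 0.00. The log2 fold change was 0.04 for CALR (calreticulin), -0.09 for CANX (calnexin), 0.06 for PDIA3 (ERp57) and 0.41 for TAPBPL (TAPBPR, a tapasin-related editor), with adjusted p from 0.332 to 0.925. Without FTO siRNA library 3, BCAP31, which encodes an export receptor of the endoplasmic reticulum, was called higher (log2 fold change 0.43, adjusted p 0.024), and UGGT1, the glycoprotein folding sensor, was called lower (-0.55, adjusted p 0.022). On all 6 libraries TAPBP was called higher, while CALR and PDIA3, which join tapasin in the loading complex, were not.

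Of 11 class I-like or other nonclassical molecules listed, HLA-G among them, 8 were tested, 2 rose and 6 did not pass. MR1, which presents vitamin B metabolites to mucosal-associated invariant T cells, averaged 7.45 ± 3.85 CPM with FTO siRNA and 1.56 ± 0.199 CPM with control siRNA (log2 fold change 2.26 ± 0.41, adjusted p 0.012 by edgeR; n = 3 each). The MR1 call was lost without control siRNA library 1 or 2, with adjusted p up to 0.0714. ULBP2, a ligand of the NKG2D receptor, averaged 9.44 ± 1.54 CPM with FTO siRNA and 1.11 ± 0.177 CPM with control siRNA (log2 fold change 3.08 ± 0.26, adjusted p 0.00141 by edgeR; n = 3 each). ULBP1, a related ligand, had 11, 28 and 803 counts in FTO siRNA libraries 1, 2 and 3, against 11, 16 and 9 counts in control siRNA libraries 1, 2 and 3, and did not pass (adjusted p 0.0907 by edgeR). FTO siRNA library 3 alone was high in ULBP1. Without that library 4 of these genes were called higher, with MICB, another NKG2D ligand, and RAET1G added. RAET1G had 20, 16 and 9 counts in FTO siRNA libraries 1, 2 and 3, against 1, 1 and 0 counts in control siRNA libraries 1, 2 and 3. It was left out of the test on all 6 libraries and entered the smaller one only through FTO siRNA libraries, so its call is set in part by the filter.

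**Figure D4:**
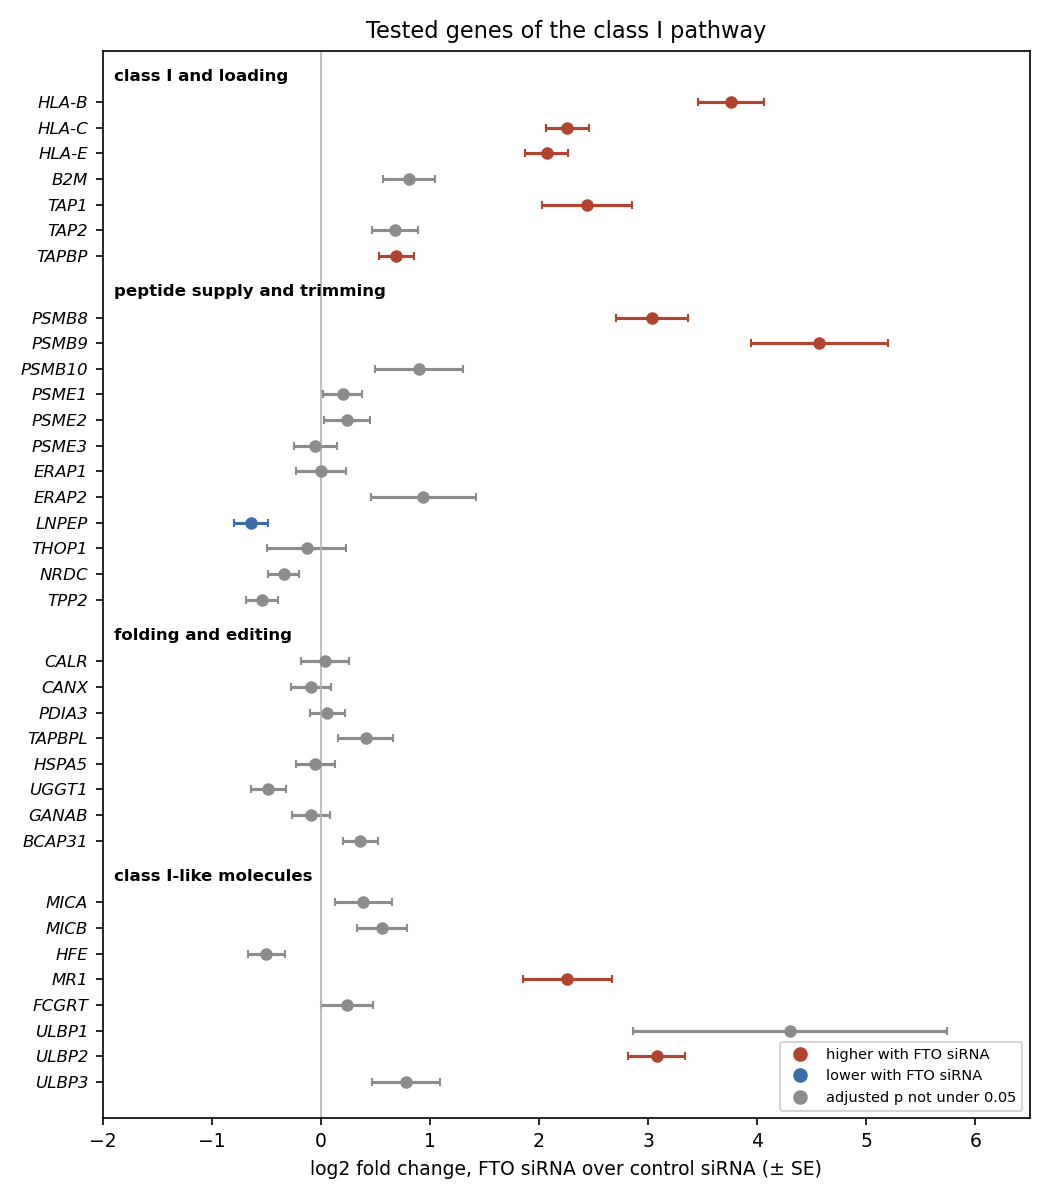
Log2 fold change (± SE) of the tested genes, FTO siRNA over control siRNA, in 4 groups of the class I pathway; colour marks genes called higher or lower at an adjusted p under 0.05, and grey marks the rest. HLA-B lay at 3.76 and PSMB8 at 3.04, while the folding and editing genes lay around 0.

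Among 12 transcription factors of class I and class II genes, 11 were tested, 1 rose and 10 did not pass, with a median log2 fold change of 0.02. The share called higher, 9.09%, was near the 7.53% of all tested genes. IRF1, an activator that binds IRF elements, had 27.7, 21.9 and 44.5 CPM in FTO siRNA libraries 1, 2 and 3, against 11.7, 13.6 and 12.6 CPM in control siRNA libraries 1, 2 and 3. IRF1 rose 2.49-fold (log2 fold change 1.31 ± 0.26, adjusted p 0.017 by edgeR). It was highest in FTO siRNA library 3 and lowest in library 2, as were HLA-B, HLA-C, HLA-E, TAP1 and TAP2. B2M, TAPBP, HLA-F and NLRC5 did not have this order. The liver gene AFP did, at 9416, 7165 and 10997 CPM in FTO siRNA libraries 1, 2 and 3, so the order was not particular to class I genes. The IRF1 call was lost without any 1 control siRNA library, with adjusted p up to 0.0959. RFX5, a subunit of the complex through which NLRC5 acts, had a log2 fold change of 0.16 (adjusted p 0.542). CIITA, the class II transactivator, had 15, 10 and 13 counts with FTO siRNA and 11, 9 and 7 counts with control siRNA, and did not pass (log2 fold change 0.40, adjusted p 0.547). Without FTO siRNA library 3, RFXANK, another subunit of that complex, was also called higher (0.42, adjusted p 0.0206), and NFYB, a CCAAT box factor, and CREB1, which binds the CRE, were called lower (-0.55 and -0.46, adjusted p 0.00949 and 0.0345).

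Class II genes other than CD74 had low counts or none. Of 12 listed, 2 were tested, and CD74, the invariant chain, rose (16.8, 10.1 and 9.35 CPM with FTO siRNA, against 3.04, 2.74 and 2.96 CPM with control siRNA; adjusted p 0.00471 by edgeR). HLA-DRA, the class II alpha chain, had 7, 16 and 9 counts with FTO siRNA and 3, 3 and 8 counts with control siRNA, and HLA-DRB1, a class II beta chain, had 4, 1 and 5 counts with FTO siRNA and 0 in each control siRNA library.

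Genes of inducing signals were read for their values beside those of the class I genes. The share called higher among all tested genes was 7.53%. Of 17 interferon gamma signalling and target genes, 12 were tested and 6 rose, with a median log2 fold change of 0.66. The 4 with the smallest p were GBP1 (2.47, adjusted p 0.00556), a guanylate-binding protein, ICAM1 (1.48, 0.00982), an adhesion molecule, GBP5 (2.49, 0.0115) and the receptor chain IFNGR2 (0.86, 0.0123), by edgeR. IFNG itself had 0, 0 and 1 counts with FTO siRNA and 0 in each control siRNA library. Of 23 type I interferon response genes, 15 were tested and 4 rose: ISG15 (1.47), IFI6 (2.62), IFITM3 (1.47) and MX1 (1.87, adjusted p 0.0441). IFNB1 had no count in any library. Of 10 NF-kappaB subunits, inhibitors and related genes, 10 were tested and 7 rose, with a median log2 fold change of 0.88. They included TNF (2.31, adjusted p 0.00337), a cytokine target, RELB (1.37, 0.00488) and NFKB2 (1.15, 0.00873), subunits of the noncanonical pathway, and NFKBIA (0.93, 0.00919), the inhibitor IkappaB alpha. The subunit REL went the other way and did not pass (-0.58, adjusted p 0.266 by edgeR). Without FTO siRNA library 3 it was called lower (-1.02, adjusted p 0.0103). MX1 was under the limit of the filter in all 3 control siRNA libraries and GBP5 in 2 of them. With 1 library left out or in another setting the adjusted p went up to 0.0645 for ICAM1, 0.0652 for GBP5, 0.0838 for IFNGR2, 0.186 for MX1, 0.057 for NFKB2 and 0.0713 for NFKBIA; the calls on these 6 genes were all lost without control siRNA library 1.

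Transcripts of immune cells, which carry high class I levels, were also higher with FTO siRNA. Of 22 immune cell markers, 14 were tested, 10 rose and 0 fell, and 18 of the 22 were higher with no overlap between the groups. Of all tested genes 7.53% were called higher and 19.2% were higher with no overlap. The 18 include markers with too few counts to be tested, such as LST1 with 6 against 0 counts. Each of the 10 was under the limit of the filter in all 3 control siRNA libraries and entered the test through the FTO siRNA libraries, so this count is set in part by the filter; 0 of the 3 markers over the limit in every control were called. Without LYZ, the lysozyme gene, which had many counts in both groups (1347, 968 and 1405 counts with FTO siRNA, against 1175, 1597 and 774 counts with control siRNA), the summed markers were 27.4, 21.7 and 22.8 CPM in FTO siRNA libraries 1, 2 and 3, against 3.67, 2.80 and 3.92 CPM in control siRNA libraries 1, 2 and 3. MS4A1, LST1, SPI1, TYROBP and SRGN were at 0 in all control siRNA libraries, and none of the 22 was at 0 in all FTO siRNA libraries. PTPRC, the pan-leukocyte marker CD45, had 20 counts in each FTO siRNA library, against 0, 1 and 1 counts in control siRNA libraries 1, 2 and 3. CD3D, of the T cell receptor complex, had 68, 33 and 57 counts with FTO siRNA and 5, 4 and 6 counts with control siRNA. The 20 immunoglobulin and T cell receptor constant region genes, which are transcribed in lymphocytes, summed to 299, 346 and 336 counts with FTO siRNA and 0, 0 and 2 counts with control siRNA. The part of the immune transcripts in the difference in class I genes was not tested.

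**Figure D5:**
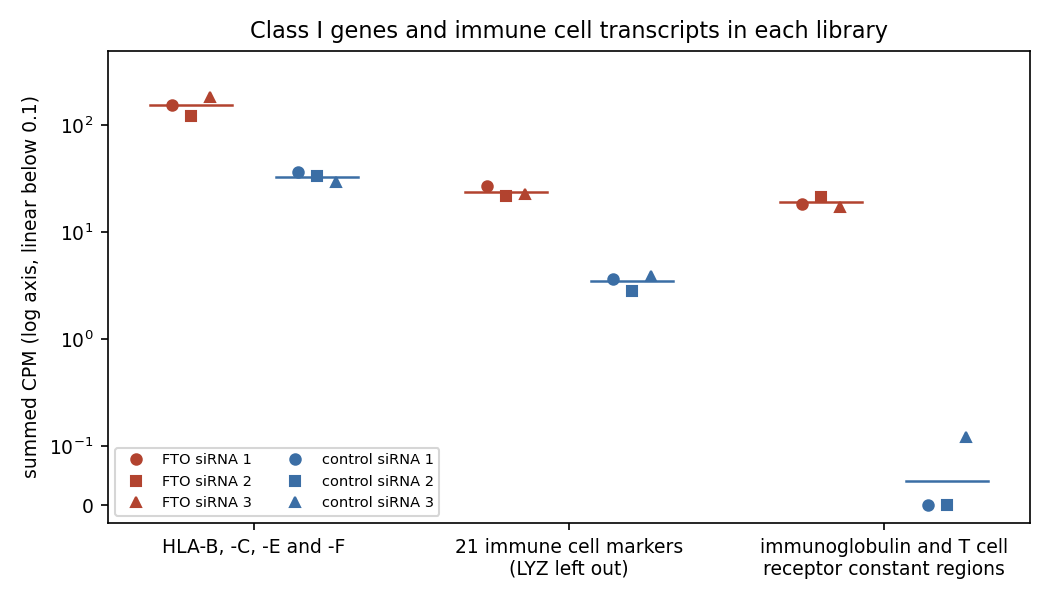
Summed CPM in each library of the 4 heavy chain genes, of 21 immune cell markers and of 20 constant region genes, on a logarithmic axis that is linear below 0.1; lines mark group means (n = 3 each). All 3 sums were higher in every FTO siRNA library, and the constant regions were at 0 in control siRNA libraries 1 and 2.

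Further counts of the immune markers, summed over the 3 libraries of a group, were as follows, with FTO siRNA against control siRNA. GNLY and NKG7, of cytotoxic granules, had 116 against 1 and 60 against 2 counts, and the T cell genes CD3E and CD2 had 21 against 4 and 43 against 3 counts. Among B cell genes, MS4A1 had 8 against 0 and CD79A 33 against 7 counts. Among myeloid genes of this list, CD14 had 107 against 49, CD68 8 against 2, FCER1G 76 against 26, TYROBP 86 against 0, LST1 6 against 0 and SPI1 2 against 0 counts. Among pan-leukocyte genes, LAPTM5 had 67 against 2, CORO1A 127 against 47, ITGB2 16 against 1, CD52 96 against 1, CD53 68 against 5 and SRGN 73 against 0 counts. The low-count B cell and myeloid genes thus stood at a few counts per library, and CD52 and TYROBP at 25 or more. In a separate list of monocyte and macrophage markers 0 of 3 tested genes passed: CD14, LYZ and S100A9, a neutrophil and monocyte protein that had 10, 6 and 26 counts with FTO siRNA and 74, 28 and 34 counts with control siRNA, lower without overlap (adjusted p 0.0665 by edgeR). Among all tested genes 17.4% were lower without overlap. S100A9 reached the filter's limit in 3 control siRNA libraries and 1 FTO siRNA library, and so entered the test through the controls. Of T cell markers 5 of 5 tested and of B cell markers 3 of 3 tested were called higher, each under the filter's limit in all 3 control siRNA libraries. The T cell list summed to 7.41 to 9.48 CPM with FTO siRNA and 0.426 to 0.966 CPM with control siRNA, and the B cell list to 7.87 to 9.20 CPM with FTO siRNA and 0.127 to 0.244 CPM with control siRNA. Among markers of other sources, 0 of 12 liver lineage genes (median log2 fold change -0.35) and 0 of 1 tested endothelial genes passed the test, 3 of 7 tested fibroblast genes rose (COL1A1, COL1A2 and TAGLN), and 2 of 4 tested markers of other cell lines rose (KRT17 and LIN28A). KRT17 was under the limit of the filter in all control siRNA libraries, and LIN28A reached it in only 1 of them. Both entered the test through the FTO siRNA libraries, and 0 of the 2 markers over the limit in every control were called. The fibroblast list summed to 277 to 613 CPM with FTO siRNA and 117 to 203 CPM with control siRNA, with TAGLN at 464, 284 and 90.0 CPM in FTO siRNA libraries 1, 2 and 3, against 34.3, 55.3 and 91.3 CPM in control siRNA libraries 1, 2 and 3. TAGLN overlapped between the groups, and COL3A1 and LUM, a collagen and a proteoglycan of fibroblasts, did not pass (log2 fold change -0.09 and 0.15). The list for other cell lines summed to 10.9 to 16.7 CPM with FTO siRNA and 5.86 to 6.46 CPM with control siRNA. Their part was not tested either.

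Genes whose pattern was most like that of the 7 tested genes were ranked by Pearson's r between log2 CPM and the mean standardised log2 CPM of the 7 over the 6 libraries, which share the difference between groups. CSF3, the granulocyte colony-stimulating factor, had r = 0.997 and averaged 10.7 CPM with FTO siRNA and 1.21 CPM with control siRNA (3.13, adjusted p 0.00213). CKM, the muscle creatine kinase, had r = 0.997 and averaged 2.16 CPM with FTO siRNA and 0.205 CPM with control siRNA (3.35, adjusted p 0.00426), and was under the limit of the filter in every control. DDX19B, an RNA helicase of mRNA export, had r = 0.996 and averaged 37.1 CPM with FTO siRNA and 21.6 CPM with control siRNA (0.78, adjusted p 0.0123, and up to 0.0875 with 1 control siRNA library left out). The likeness describes these 6 libraries and is given without a test.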

How the data were processed

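Total RNA of HepG2 cells was sequenced in 6 libraries, 3 with FTO siRNA and 3 with control siRNA, with groups and replicate numbers taken from the labels. The authors deposited 1 table of raw read counts per gene for each library; per the submitters' processing notes, HTSeq, TopHat and TopHat2 2.0.11 were used, with GRCh37 and hg19 as builds and no role stated for any. Neither strand use nor the treatment of multiply matching reads is given in the sources used here. Of 60483 identifiers, 56753 matched GENCODE 29 (37168 also by version), which gave symbols, lengths and overlaps; promoters came from RefSeq GRCh38.p14.

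The deposited counts were tested with edgeR 4.0.16 in R 4.3.3: filterByExpr by group (minimum count 10), TMM scaling, then glmQLFit and glmQLFTest, two-sided, adjusted by Benjamini-Hochberg over all 15025 tested genes and a threshold of 0.05. The script was tested on simulated data. CPM are TMM-scaled; SE is the log2 fold change over the square root of F. Intervals and floors cover counting error only. Alternatives were other scalings and filters, DESeq2 1.42.0, voom of limma 3.58.1, GC and length offsets, a replicate block and leaving out each library. The members and gene lists were chosen with earlier results of these data known. Genes outside the 9 were named by rule: FTO, up to 4 called genes of each list with the smallest p, regulators and partners of class I, immune markers, and the 5 genes most alike in pattern; a few genes that this rule names are not reported here. Of the other marker lists the counts of calls are given. SOCS1 and other called genes past the first 4 were only counted. Genes named for results without FTO siRNA library 3 (BCAP31, UGGT1, MICB, RAET1G, RFXANK, NFYB, CREB1 and REL) were chosen after their values were seen.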

Additional observations from a re-analysis of the deposited data

How the results depend on the processing

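Of the 105 values of the 7 tested genes under 15 alternatives each, 69 were past the threshold and no sign changed. HLA-B, HLA-C and HLA-E passed in all 15, TAP1 in 14, TAPBP in 8, B2M in 2 and TAP2 in 0. The number of these genes called higher was 4 to 6 across the other settings and 3 to 6 with 1 library left out. The number of all genes called was 1707 and ranged from 330 to 4582 with 1 library left out, lowest without control siRNA library 1 (236 higher and 94 lower) and highest without FTO siRNA library 3 (2430 higher and 2152 lower); the cause was not tested. Without control siRNA library 2 it was 393, without control siRNA library 3 it was 767, and without FTO siRNA library 1 it was 1075. The summed heavy chains stayed past the threshold throughout (log2 fold change 2.03 to 2.33 with 1 library left out). Same-numbered libraries did not deviate together (correlations of -0.14, -0.06 and -0.25), so the numbers were not taken as pairs; with the replicate block 1041 genes were called (736 higher and 305 lower) and 4 of the 7, without TAPBP (adjusted p 0.0915). Scalings moved the median log2 fold change of all genes between 0.01 and 0.09. Genes that were not called and lay near 0 changed sign: ERAP1 to -0.02 with RLE factors, DESeq2 and voom, -0.05 with no filter, -0.03 with the replicate block and -0.3 to 0.14 with 1 library left out, CALR to -0.01 with no filter, -0.16 with GC and length offsets and -0.13 to 0.14 with 1 library left out, CANX to 0 with those offsets, and PDIA3 to between -0.03 and 0.11 with 1 library left out. The alternatives for genes outside the 9, and the list counts without FTO siRNA library 3, were chosen after seeing the data. Depth limited HLA-F, NLRC5, PSMB9 and the control values of HLA-B, which rest on few counts.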
